A study of Mus musculus with 5 samples.

Results

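The 10 Sox genes followed here were measured in single cells of the early mouse eye region: Sox1, Sox2 and Sox3 (group B1), Sox21 (group B2), Sox4, Sox11 and Sox12 (group C), and Sox8, Sox9 and Sox10 (group E). They were chosen by Sox group, with Sox21 added, when earlier results of these data were known. They are 10 of the 19 Sox genes and of the 27998 genes in the count matrix. Together they had 181470 of its 257637891 UMIs, the unique molecular identifiers that count distinct RNA molecules. The study profiled wild type C57BL/6J mouse embryos at 12, 16, 20, 24 and 26 somites by droplet single-cell RNA sequencing. Each stage was 1 embryo, from which a pair of optic areas was dissected by needle and dissociated with trypsin. The matrix pools all cells, and a barcode suffix from 1 to 5 separates the 5 libraries without naming a stage. Libraries are therefore numbered by suffix, no stage is assigned to any of them, and no test between stages or p-value is given.

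SOX proteins are transcription factors that bind DNA through an HMG box. SOXB1 proteins hold neuroepithelial cells in a progenitor state, and SOX21 counters them as neurons form. SOXC proteins act in neuronal differentiation and in the survival and growth of many embryonic mesenchymes. SOXE proteins act in the neural crest, where SOX9 promotes crest formation and cartilage, SOX10 maintains migrating and glial crest cells, and SOX8 overlaps with both. In the eye, SOX2 is required for the neural retina, and loss of SOX2 or its regulators is a known cause of absent or small eyes.

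Cells were sorted into classes from marker genes, with every Sox gene left out of both the clustering and the naming. A name ending in "-like" means that markers of that class were at least 2-fold higher than in the comparison cells. Of 8106 cells kept, 1919 were optic vesicle-like (10 of 10 markers), 1063 other forebrain-like, 1692 cranial neural crest mesenchyme-like (8 of 8), 121 migratory neural crest-like (8 of 8) and 196 surface ectoderm-like (9 of 9). Head mesoderm-like cells (437) passed with 5 of 11 markers, and Msc, Myf5, Meox1, Meox2, Tcf15 and Cyp26c1 did not pass, so that name rests on Foxc1, Foxc2, Tbx1, Tcf21 and Osr1. A ventral cluster led by Nkx2-1 and Shh (705 cells), 206 ectodermal cells, 277 cells with both neural and crest markers, and 779 cells nearly without the nuclear RNA Malat1 stayed outside the named classes. Libraries had 1307 to 1996 barcodes and median depths of 20713 to 30922 UMIs, lowest in library 5, and 40 barcode sequences occurred in more than 1 library. Library 5 stood apart in its makeup: it held 7 of the other forebrain-like and 4 of the head mesoderm-like cells, and its Malat1 level in crest mesenchyme-like cells was 5682 CPM against 1740 to 3237 CPM elsewhere. CPM is a gene's UMIs divided by all UMIs of the cells of a class and multiplied by 1000000. UMIs were counted from the 3′ ends of transcripts and not divided by length, so levels are compared within a gene and not between genes.

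The bases before the start sites of 5 members are shown. Of the neural members, Sox2 had the largest fold between retina and pigment epithelium, and Sox21 between vesicle and other forebrain. The others are the widely expressed trio Sox4, Sox11 and Sox12, whose RNA varied together across classes and libraries. The bases come from RefSeq (GRCm38.p6), which lists a start window for 7 of the 10 members. Each is written 5′ to 3′ on the gene's own strand. Capitals mark any of 6 motifs read on either strand, which are named after the sequences.
Sox2: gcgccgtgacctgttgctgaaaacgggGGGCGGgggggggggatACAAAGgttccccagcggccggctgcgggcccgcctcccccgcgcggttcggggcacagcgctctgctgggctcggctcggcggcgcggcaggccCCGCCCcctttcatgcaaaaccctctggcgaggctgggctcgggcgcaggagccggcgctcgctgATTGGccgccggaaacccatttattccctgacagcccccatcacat
Sox21: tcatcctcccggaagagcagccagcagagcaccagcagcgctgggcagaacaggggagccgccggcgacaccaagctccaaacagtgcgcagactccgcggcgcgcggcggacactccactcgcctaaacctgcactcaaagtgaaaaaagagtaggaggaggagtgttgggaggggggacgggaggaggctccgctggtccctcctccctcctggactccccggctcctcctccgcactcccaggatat
Sox4: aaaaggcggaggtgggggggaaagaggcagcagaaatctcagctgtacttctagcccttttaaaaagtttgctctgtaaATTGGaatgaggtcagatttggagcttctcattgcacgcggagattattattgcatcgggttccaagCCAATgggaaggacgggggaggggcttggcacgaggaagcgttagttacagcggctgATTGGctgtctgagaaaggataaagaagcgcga
Sox11: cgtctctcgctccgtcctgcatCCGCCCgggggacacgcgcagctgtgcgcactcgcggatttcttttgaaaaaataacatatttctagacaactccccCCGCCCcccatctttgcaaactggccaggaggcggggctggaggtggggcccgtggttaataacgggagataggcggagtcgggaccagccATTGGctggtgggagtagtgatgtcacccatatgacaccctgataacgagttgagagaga
Sox12: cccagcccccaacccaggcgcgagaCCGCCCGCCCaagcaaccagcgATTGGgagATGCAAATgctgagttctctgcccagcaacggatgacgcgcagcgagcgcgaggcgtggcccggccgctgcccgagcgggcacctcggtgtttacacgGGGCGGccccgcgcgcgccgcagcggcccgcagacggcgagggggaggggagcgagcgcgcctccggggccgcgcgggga
They lie at chr3:34649745-34649994 on the plus strand (Sox2), and on the minus strand at chr14:118237031-118237280 (Sox21), chr13:28953714-28953949 (Sox4), chr12:27342719-27342968 (Sox11) and chr2:152398064-152398296 (Sox12). The Sox4 and Sox12 windows were shortened by 14 and 17 bases that lie inside the annotated gene. Among all 32851 windows of 250 bases, CCAAT was present in 33.8% and the motif GGGCGG in 32.7%. The core ACAAAG, which SOX proteins bind, was present in 16.5%, its variant ACAATG in 10.7%, the box TATAAA in 12.4% and the octamer ATGCAAAT in 1.6%. CCAAT occurred 3 times before Sox4 and once each before Sox2, Sox11 and Sox12, and GGGCGG occurred 2 times before Sox2 and Sox11 and 3 times before Sox12. ACAAAG occurred once, before Sox2, the octamer once, before Sox12, and the remaining 2 motifs occurred in none of the 5. The Sox21 window held none of the 6 motifs. Over the full 250 bases, which for Sox4 and Sox12 include those inside the gene, G and C made up 50.8% before Sox4, 58.0% before Sox11 and 74.4% before Sox12, against a median of 52.4% over all windows. These matches are letters only and show no binding.

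Sox1, Sox2, Sox3 and Sox21 RNA lay in the neuroepithelium and was nearly absent from crest mesenchyme. Sox2 (ENSMUSG00000074637, 1 exon, chr3:34650405-34652461, plus strand, inside the long transcript Sox2ot) was at 86.7, 124, 79.8, 85.8 and 70.9 CPM in the neuroepithelium of libraries 1 to 5, meaning optic vesicle-like plus other forebrain-like cells. In crest mesenchyme-like cells of the same libraries it was at 6.25, 5.001, 2.96, 2.62 and 2.73 CPM. The groups did not overlap in any library, and the summed level was 22.2-fold higher in neuroepithelium (95% interval 19.2 to 25.8). All intervals here are exact Poisson or binomial intervals for counting error and do not cover differences between embryos. Sox1 was 25.2-fold higher (18.2 to 35.9) at 16.2 to 27.5 CPM in neuroepithelium, Sox3 28.4-fold higher (21.4 to 38.6) at 13.96 to 41.1 CPM, and Sox21 25.0-fold higher (17.8 to 36.2) at 9.12 to 25.5 CPM. In crest mesenchyme-like cells Sox1, Sox3 and Sox21 stayed at or below 1.82 CPM in all 5 libraries.

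Genes were counted past a size rule when the ratio of levels was at least 2, its interval left out 1, the higher level was at least 10 CPM, and every library with at least 20 cells of both classes had the same direction. Over all genes, 5.06% of 7434 were higher in neuroepithelium than in crest mesenchyme by this rule, and 4.91% were lower. Among the members, 9 of which reached 10 CPM, 4 were higher (the neural set), 2 were lower (Sox9 and Sox10) and 4 met neither side (Sox4, Sox11, Sox12 and Sox8). With a minimum of 20 CPM, Sox2, Sox3 and Sox9 passed and the other 3 did not. The median log2 ratio of the 10 members, with 5 CPM added to both levels, was -0.16, against -0.05 over all genes tested. Markers of the other class were present at low levels on both sides, with all 10 optic vesicle markers detected at a summed 22.7 CPM in crest mesenchyme-like cells (9.97 to 37.9 CPM by library) and all 8 crest mesenchyme markers at 35.7 CPM in neuroepithelium. Their part in the low Sox levels of either class was not tested.

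The other genes of the neural program were read from a list of 12 progenitor genes and partner factors of SOXB1 proteins, of which 11 reached 10 CPM. In neuroepithelium against crest mesenchyme, 8 were higher, 0 lower and 4 met neither side. The largest ratios were those of the homeobox genes Pax6 (232 against 4.19 CPM, 55.4-fold), Otx2 (106 against 2.42 CPM, 43.6-fold) and Pou3f2 (13.97 against 0.334 CPM, 41.9-fold) and of the Notch target Hes5 (25.2 against 0.813 CPM, 31.0-fold). Pax6 was also a naming marker of the vesicle. Of the 9 other Sox genes in the matrix, only Sox6 passed, at 17.6 against 6.17 CPM, while Sox5 and Sox13 were within 1.2-fold and the remaining 6 were below 1 CPM in both classes.

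**Figure D1:**
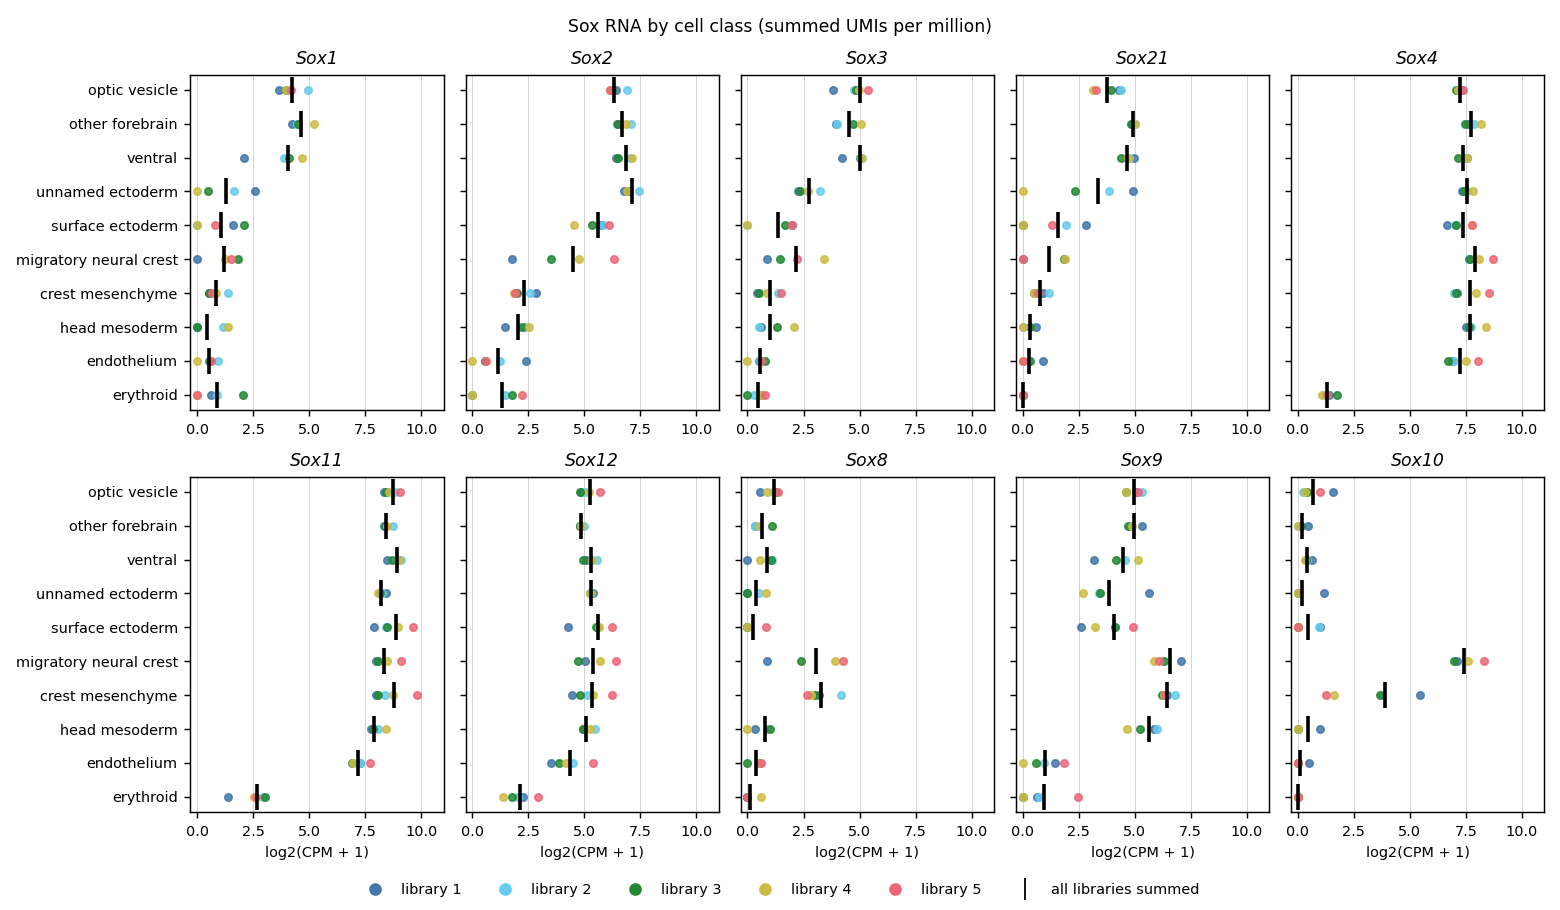
Levels of the 10 Sox genes in 10 cell classes on a log2(CPM + 1) axis. Coloured points are single libraries with at least 20 cells of the class and black bars are all libraries summed. Sox1, Sox3 and Sox21 are highest in the neuroepithelial rows, Sox2 also in the ectodermal rows, Sox10 in the crest rows, and Sox4, Sox11 and Sox12 in every row but the erythroid one.

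Across all classes, Sox2 had the widest reach of the neural set. From high to low it was at 139 CPM in the unnamed ectodermal cells (107 to 174 CPM by library), 113 in the ventral cluster (85.4 to 141), 100.3 in other forebrain-like (88.1 to 135) and 79.5 in optic vesicle-like cells (68.8 to 120). These 4 ranges overlapped. Surface ectoderm-like cells followed at 47.8 CPM (22.2 to 68.0), just below the range of the vesicle, and migratory crest-like cells at 21.3 CPM (2.44 to 78.6), which overlapped its neighbours on both sides. Crest mesenchyme, head mesoderm, erythroid and endothelium-like cells were between 1.24 and 3.88 CPM, with overlapping ranges. Sox1, the B1 member with the narrowest reach, was at 23.6, 17.6 and 15.8 CPM in other forebrain, vesicle and ventral cells and at most 1.45 CPM, summed over libraries, in each of the other classes in the plot of levels by class. Sox3 and Sox21 had intermediate levels in the unnamed ectodermal cells, 5.78 and 9.40 CPM.

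Sox2 was seen in 53.0% of neuroepithelial cells at a fixed depth, and its partners in fewer. After each cell was thinned to 10000 UMIs, Sox2 was seen in 49.5% of optic vesicle-like cells (47.2 to 51.8%, 1872 cells, 47 shallower cells left out) and 59.4% of other forebrain-like cells, against 3.38% of crest mesenchyme-like cells. Without thinning the shares were 79.5%, 87.5% and 8.75%, at median depths of 30901, 28263 and 28008 UMIs. In erythroid-like cells, which should lack these genes, Sox2 was seen in 1.58% (0.432 to 3.998%, median 42576 UMIs). The share in crest mesenchyme-like cells lay within that interval, while their summed level of 3.88 CPM (3.34 to 4.48) was above the 1.47 CPM (0.840 to 2.39) of erythroid-like cells. Sox1, Sox3 and Sox21 were seen in 17.6%, 21.3% and 14.96% of thinned neuroepithelial cells. Sox2 and Sox3 were seen together in 11.8% of these cells, against a product of the single shares of 11.3%, Sox2 and Sox1 in 10.9% against 9.36%, and Sox2 and Sox21 in 8.48% against 7.93%. The product is what would be found without any link between the genes.

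Within the neuroepithelium, Sox21 was the 1 member past the size rule between vesicle and other forebrain. It was at 18.4, 19.7, 14.4 and 7.88 CPM in optic vesicle-like cells of libraries 1 to 4 and at 28.2, 31.7, 27.6 and 31.6 CPM in other forebrain-like cells. The vesicle was lower in all 4 libraries where both classes had at least 20 cells, and the summed level was 2.36-fold lower (2.15 to 2.59). Library 5, where the vesicle had 8.66 CPM, had too few other forebrain-like cells to compare by itself. The summed fold still includes its 804 vesicle cells, against 7 other forebrain-like cells. With libraries weighted equally the fold was 1.97, and with the ventral cluster counted as vesicle 1.98, each below the limit of 2. By the size rule 0.775% of 7099 genes were higher in other forebrain and 1.17% higher in the vesicle, and Sox21 was the 1 member of 10 on the former side, with 0 on the latter. Sox2 (1.26-fold) and Sox4 (1.44-fold) were also lower in the vesicle in 4 of 4 libraries and Sox12 higher in 4 of 4 (1.35-fold), below the limit. Sox8 (1.29 against 0.584 CPM, 2.21-fold, 1.34 to 3.83) and Sox10 (0.596 against 0.154 CPM, 3.88-fold, 1.54 to 12.6) were higher in the vesicle in 4 of 4 libraries. Both were under the minimum of 10 CPM. Early neuronal genes differed in the same cells. Of that list of 12 genes, 2 were higher in other forebrain and 0 in the vesicle, namely the tubulin Tubb3 (75.0 against 25.9 CPM) and Stmn2 (25.9 against 8.89 CPM), and 7 of the 12 were naming markers of neurons. Of the progenitor list, Pou3f2 (5.48-fold) and Fabp7 (4.54-fold) were higher in other forebrain and 10 genes met neither side.

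The retina-like and pigment-epithelium-like parts of the vesicle differed in Sox2. Retina-like cells (180, with 5 of 6 markers) and pigment-epithelium-like cells (150, with 5 of 7) were sub-clusters of the optic vesicle-like class, and 179 and 147 of them came from library 5. Their difference thus rests on 1 library. Sox2 was at 99.1 CPM in the former and 17.5 CPM in the latter, 5.65-fold higher (4.46 to 7.25). By cell, 62.1% of thinned retina-like cells had Sox2 (54.4 to 69.5%) against 18.5% of pigment-epithelium-like cells (12.6 to 25.8%). Sox2 was the 1 member of 10 past the size rule, among 1.95% of 7699 genes higher in the retina-like cells, and 0 members were among the 2.56% higher in the pigment-epithelium-like cells. Sox11 was 1.75-fold higher in the retina-like cells (1.65 to 1.85) and Sox9 was at 32.9 against 38.4 CPM, with an interval of the ratio that includes 1 (0.694 to 1.06). Under 10 CPM, Sox1 (3.47-fold, 1.59 to 8.65) and Sox21 (4.24-fold, 1.44 to 16.9) were higher in the retina-like cells. Sox10, also under 10 CPM, was 5.185-fold higher in the pigment-epithelium-like cells (1.40 to 28.6). Sox3 was 1.68-fold higher in the retina-like cells and Sox4 1.29-fold higher in the pigment-epithelium-like cells. Otx2, a homeobox gene of the pigment epithelium, was 2.58-fold higher in the pigment-epithelium-like cells, and Sox6 2.21-fold higher.

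Sox1, Sox3 and Sox21 were distributed differently from Sox2 across the vesicle of library 5. In its sub-cluster 0, led by Fezf2 and Zic1 (243 cells), Sox1, Sox2, Sox3 and Sox21 were at 33.8, 88.8, 72.4 and 19.4 CPM. In the retina-like cells of the same library they were at 6.19, 99.1, 19.1 and 3.78 CPM, and in the pigment-epithelium-like cells at 1.82, 17.3, 11.6 and 0.912 CPM. Sub-cluster 0 was thus 5.46-fold higher than the retina-like cells in Sox1 (3.82 to 8.01), 3.79-fold in Sox3 (3.08 to 4.71) and 5.12-fold in Sox21 (3.24 to 8.48), while its ratio for Sox2 was 0.896 (0.796 to 1.01). Retina-like cells therefore had low Sox1, Sox3 and Sox21 with Sox2 at the level of sub-cluster 0, and pigment-epithelium-like cells were low in all 4. Sub-cluster 8, led by Rpgrip1 and Notch2, resembled sub-cluster 0 in these 4 genes, with each interval of the ratio including 1. Sub-cluster 9, led by Vax2 and Aldh1a3, lay between sub-cluster 0 and the retina-like cells in Sox1 and Sox3 (15.1 and 42.4 CPM). Its Sox2 level of 57.5 CPM was below both, by 1.54-fold against sub-cluster 0 (1.33 to 1.79) and 1.72-fold against the retina-like cells (1.49 to 1.996). Sub-clusters 0, 8, 9, 4 and 7 had median depths of 22918, 15173, 42936, 28082 and 26181 UMIs over all their cells.

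**Figure D2:**
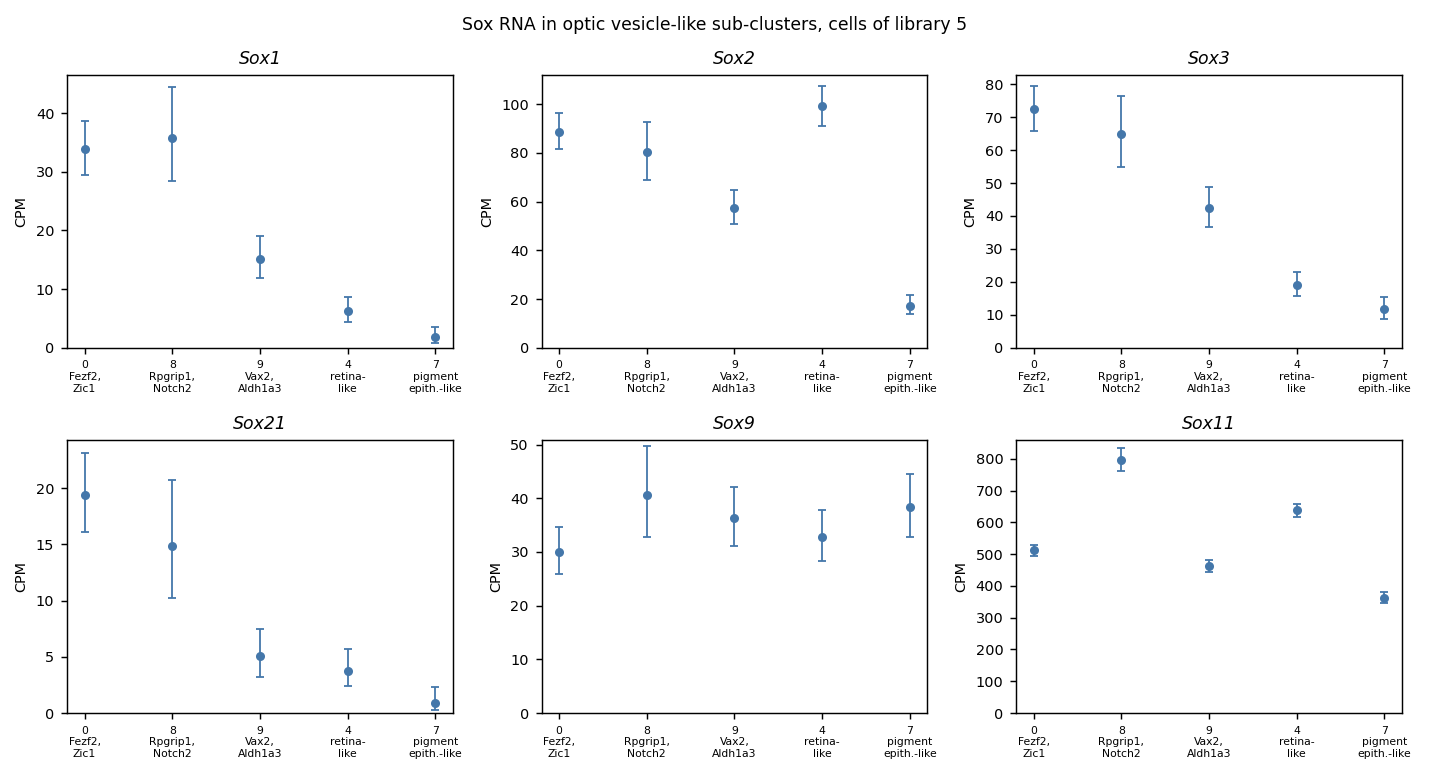
CPM of 6 Sox genes in 5 optic vesicle-like sub-clusters, using library 5 cells only, with exact Poisson 95% intervals for counting error. Sox1, Sox3 and Sox21 are low in the retina-like sub-cluster (6.19, 19.1 and 3.78 CPM) while Sox2 is at 99.1 CPM there, and Sox2 is lowest in the pigment-epithelium-like sub-cluster (17.3 CPM), followed by sub-cluster 9 (57.5 CPM).

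Surface ectoderm-like cells carried Sox2 with little Sox1, Sox3 or Sox21, at 1.07, 1.60 and 1.95 CPM summed over libraries. In surface ectoderm-like cells of libraries 1 to 5, Sox2 was at 52.0, 56.3, 39.8, 22.2 and 68.0 CPM, against 83.0, 120, 74.7, 68.8 and 70.6 CPM in the vesicle. The vesicle was higher in 5 of 5 libraries, by 1.67-fold over all cells (1.47 to 1.89), which is under the limit of 2. Sox1 was 16.5-fold (7.55 to 45.0), Sox3 19.6-fold (10.3 to 43.0) and Sox21 6.38-fold (3.55 to 12.8) higher in the vesicle, from 6, 9 and 11 UMIs in the ectoderm. These 3 members of 10 passed the rule, beside 2.41% of 7766 genes, and 0 members were among the 7.94% higher in surface ectoderm. Without library 5 the fold was 2.02 for Sox2 and 2.42 for Sox9, and 5 members passed. Without library 3 the Sox9 fold was 2.11 and 4 passed. The share over all genes was not computed without either library. With the unnamed ectodermal cells counted as surface ectoderm, an alternative chosen after the data were seen, Sox2 was lower in the vesicle, at 79.5 against 97.9 CPM.

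Sox2 differed widely among the 9 ectodermal sub-clusters, which were formed without any Sox gene. The lowest level was 13.6 CPM (5.47 to 28.0), in 25 cells led by Ahnak and Wnt4 of which 23 came from library 5. The highest was 201 CPM (174 to 231), in 26 cells led by Nkx2-9, Fgf8 and Fgf17. The 4 unnamed sub-clusters, from 107 to 201 CPM, were all above the 5 surface ectoderm-like ones, from 13.6 to 71.5 CPM. The cells led by Neurog1 and Foxi2 had 28.0 CPM, and those led by Hmx1, Sfrp2 and Pitx3 had 71.5 CPM. Sox1 was between 0 and 6.09 CPM in all 9 sub-clusters, and Sox21 exceeded 9 CPM in 3 of the unnamed ones. Markers of optic vesicle were present in every sub-cluster, at a summed 106 to 901 CPM, the highest also in the Nkx2-9 sub-cluster (6 of 10 markers detected) and the lowest in the Neurog1 sub-cluster (5 of 10). Pax6, Pax2 and Six3 of this list are also genes of placodes, and the markers' part in the Sox2 levels was not tested.

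**Figure D3:**
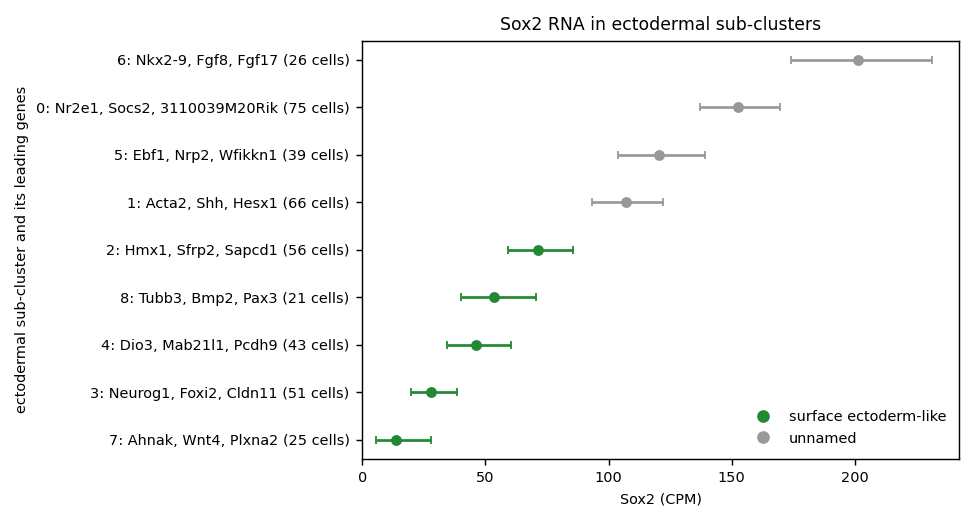
Sox2 level in 9 ectodermal sub-clusters, ordered by level and labelled with 3 leading genes and the number of cells. Bars are exact Poisson 95% intervals for counting error. The unnamed sub-clusters (grey) lie between 107 and 201 CPM, above the surface ectoderm-like ones (green), which lie between 13.6 and 71.5 CPM.

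Of the group E genes, Sox10 lay mostly in the crest classes. Sox10 (ENSMUSG00000033006, 5 exons in its longest transcript, chr15:79154908-79165240, minus strand) had 1532 UMIs in the matrix, and 44.2% of those in cells kept lay in the 121 migratory crest-like cells, which were 1.49% of cells, and 44.3% in crest mesenchyme-like cells. In migratory crest-like cells of libraries 1, 3, 4 and 5 it was at 136, 123, 194 and 320.0 CPM, and library 2 had 7 such cells and was left out. In crest mesenchyme-like cells of libraries 1 to 5 it was at 43.3, 12.4, 11.7, 2.01 and 1.42 CPM. The migratory cells were thus higher in 4 of 4 libraries, with ratios of 3.14 (2.60 to 3.77) in library 1, 10.45 (8.10 to 13.5) in library 3, 96.3 (60.0 to 162) in library 4 and 226 (131 to 422) in library 5. Over all cells the fold was 12.2 (10.9 to 13.6). Summed over libraries, Sox10 was at most 0.596 CPM in vesicle, forebrain, ectodermal, head mesoderm, endothelium and erythroid-like cells. Single values were higher, at 1.96 CPM in the vesicle of library 1, 1.27 CPM in the unnamed ectodermal cells of library 1 and 2.66 CPM (12 UMIs) in the pigment-epithelium-like cells. A Sox10 UMI was seen in 0 of 253 erythroid-like cells, which at 3 counts of the total allows a share of cells with a UMI of up to 1.19% and does not limit the share of cells expressing the gene.

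Library 1 carried much of the Sox10 in crest mesenchyme. Against neuroepithelium, Sox10 was 29.96-fold higher in crest mesenchyme (22.3 to 41.05) and Sox9 2.84-fold higher (2.71 to 2.98), each in 5 of 5 libraries. Without library 1, Sox10 in crest mesenchyme was 6.79 CPM, under the minimum of 10, with a fold of 16.9, and Sox9 remained as the 1 member past the rule. The crest mesenchyme-like cells of different libraries lay in different clusters: of the 515 cells of cluster 3, 220 and 286 came from libraries 1 and 2, of the 654 of cluster 1, 291 and 348 came from libraries 3 and 4, and library 5 gave 404 of the 409 of cluster 8 and all 114 of cluster 21. Sox10 was at 27.7, 6.32, 1.66 and 0 CPM in clusters 3, 1, 8 and 21. The summed level of the 8 migratory crest markers in crest mesenchyme-like cells was 192, 121, 84.0, 49.7 and 54.4 CPM in libraries 1 to 5, and its part in the Sox10 difference was not tested.

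Sox9 (ENSMUSG00000000567, 3 exons, chr11:112782224-112787760, plus strand) was steadier than Sox10. It was at 85.3, 110.2, 73.2, 78.5 and 80.7 CPM in crest mesenchyme-like cells and at 131, 78.1, 56.4 and 65.8 CPM in the migratory cells of libraries 1, 3, 4 and 5. The migratory cells were higher in 2 of these libraries and lower in the other two, and the summed ratio was 1.11 (0.992 to 1.23). From high to low, Sox9 was at 94.6 CPM in migratory crest, 85.5 in crest mesenchyme, 48.6 in head mesoderm (23.8 to 62.5), 30.6 in other forebrain, 29.9 in vesicle, 21.6 in the ventral cluster and 15.6 in surface ectoderm. The ranges of the first 2 overlapped, as did those of the last 5, and that of crest mesenchyme lay above that of head mesoderm. In endothelium and erythroid-like cells it was at 1.005 and 0.919 CPM. Sox9 thus had RNA in every class but the blood and vascular ones, and Sox2 and Sox9 were seen together in 12.9% of thinned neuroepithelial cells, against a product of 12.2%.

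Sox8 (ENSMUSG00000024176, chr17:25565892-25570686, minus strand) had the fewest UMIs of the members, 677, and overlaps an antisense gene. It was at 8.11, 16.8, 7.09, 6.14 and 5.36 CPM in crest mesenchyme-like cells and at most 1.55 CPM in the neuroepithelium of any library. Crest mesenchyme was higher in 5 of 5 libraries, by 8.11-fold (6.56 to 10.1), but the summed level of 8.67 CPM was under 10 CPM and Sox8 therefore met neither side of the rule. In crest mesenchyme, library 2 was the highest in both Sox8 and Sox9. In migratory crest-like cells of libraries 1, 3, 4 and 5, Sox8 was at 0.814, 4.29, 13.75 and 18.3 CPM, below crest mesenchyme in libraries 1 and 3 and above it in libraries 4 and 5.

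**Figure D4:**
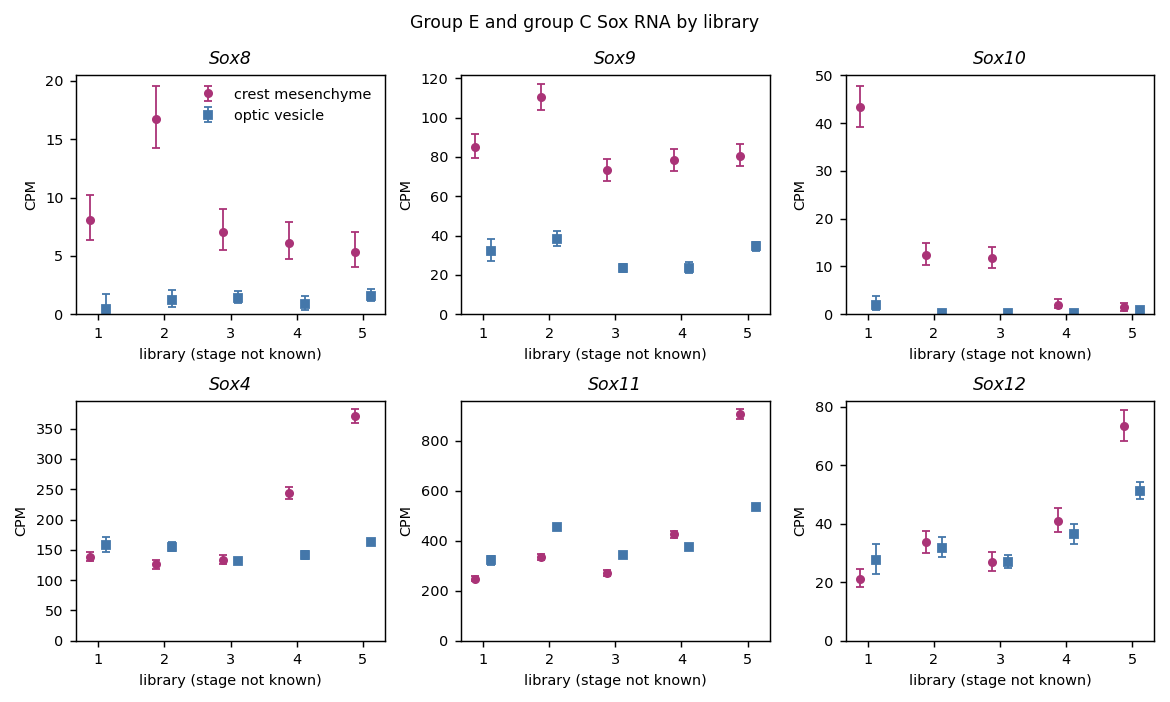
CPM of the group E genes Sox8, Sox9 and Sox10 (top) and the group C genes Sox4, Sox11 and Sox12 (bottom) in crest mesenchyme-like (circles) and optic vesicle-like cells (squares) of each library. Bars are exact Poisson 95% intervals for counting error, and the order of libraries is not known to be an order of stages. Sox10 in crest mesenchyme spans 43.3 to 1.42 CPM while Sox9 stays between 73.2 and 110.2 CPM, and Sox4, Sox11 and Sox12 are highest in library 5.

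Other crest genes divided the crest classes in the way Sox10 did. Of a list of 15 crest regulators and early glial genes, 10 were higher in migratory cells than in crest mesenchyme, 3 lower and 2 met neither side, but 9 of the 15 were naming markers. The largest ratios were those of Foxd3, a crest regulator (12.9 against 0.0834 CPM) and of the endothelin receptor Ednrb (42.3 against 0.375 CPM), both of which were naming markers of the migratory class, and Snai2 was 10.3-fold lower in migratory cells. Among 10 cartilage matrix genes, several of them SOX9 targets in cartilage, 4 reached 10 CPM, 2 were lower in migratory cells (Col9a1, 3.00-fold, and Hapln1, 2.25-fold) and 0 were higher. Of the other Sox genes, Sox5, a partner of SOX9 in cartilage, was 2.57-fold higher in migratory cells (38.0 against 14.8 CPM). By the size rule 1.83% of 7221 genes were higher in migratory cells and 2.85% in crest mesenchyme, and 1 member, Sox10, was on the former side and 0 on the latter.

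Sox2 in migratory crest-like cells differed between libraries more than in any other class with all its libraries above 1 CPM. It was at 2.44 CPM (3 UMIs), 10.3, 26.1 and 78.6 CPM in libraries 1, 3, 4 and 5. The level was below that of crest mesenchyme in library 1 (ratio 0.391, 0.0783 to 1.20) and above it in libraries 3, 4 and 5 (3.48-, 9.98- and 28.8-fold), so Sox2 did not pass the rule although its summed fold was 5.49 (4.19 to 7.14). Without library 1 it passed. Markers of optic vesicle moved in part with it, with 5, 7, 10 and 8 of 10 detected in these libraries at a summed 16.3, 66.1, 175 and 101 CPM. The order of the 2 measures differed, since library 4 was highest in the markers and library 5 in Sox2. Median depth was 43176, 37872, 27566 and 15990 UMIs. The part of the vesicle markers and of depth in this Sox2 was not tested. By cell, Sox2 and Sox10 were seen together in 20.2% of thinned migratory cells (13.4 to 28.5%, 119 cells), beside a product of 18.02%, and in 0.0689% of neuroepithelial cells. Sox9 and Sox10 were seen together in 33.6% of migratory cells (25.2 to 42.8%), against a product of 36.0%.

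**Figure D5:**
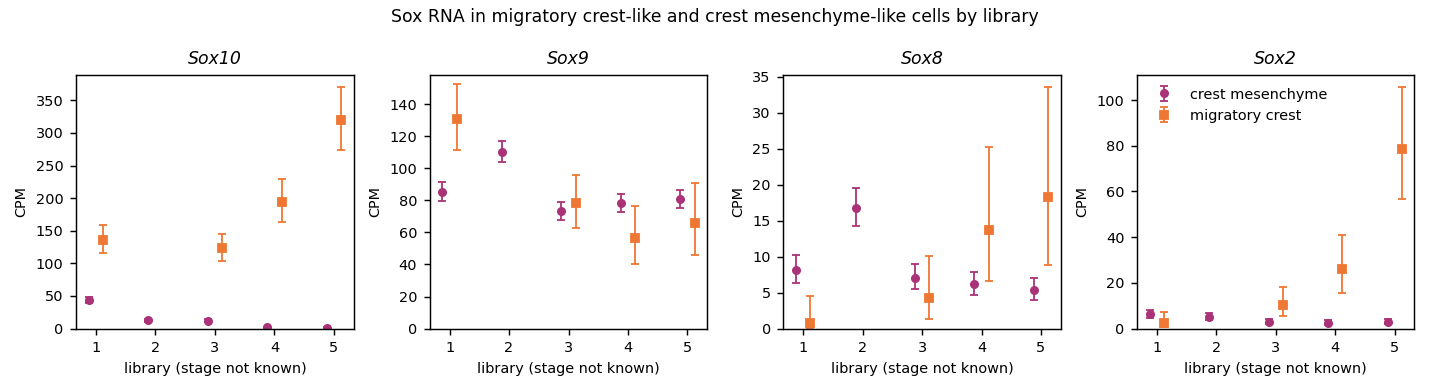
CPM of Sox10, Sox9, Sox8 and Sox2 in migratory crest-like (squares) and crest mesenchyme-like cells (circles) of each library, with exact Poisson 95% intervals for counting error. Library 2 had too few migratory cells to plot. Sox10 is higher in the migratory cells of 4 of 4 libraries, and Sox2 spans 2.44 to 78.6 CPM there while it stays at or below 6.25 CPM in crest mesenchyme.

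The migratory class itself depended on the clustering. When doublets were kept, when barcodes were not filtered, at resolution 2, or with Sox genes allowed in the clustering, 32 cells had the name, 31 of them from library 5 and 1 from library 4. In those cells Sox10 was at 325 CPM and Sox2 at 71.6 CPM, and 5 members (Sox2, Sox4, Sox12, Sox8 and Sox10) passed the rule against the crest mesenchyme of all libraries. Those calls set cells of nearly 1 library against crest mesenchyme of all 5, and Sox4 and Sox12 were also highest in library 5 within crest mesenchyme. The direction could be checked in library 5 alone. The share of all genes past the rule was not computed for these settings, so the count of members has no background beside it.

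Crest mesenchyme-like and head mesoderm-like cells, both mesenchymes of the head, differed past the rule in 1 member. Sox10 was 38.3-fold higher in crest mesenchyme (14.9 to 141), from 4 UMIs in head mesoderm, and was the 1 member of 10 past the rule, with 0 on the side of head mesoderm, beside 1.06% and 2.39% of 7289 genes. Without library 1 no member passed, since Sox10 in crest mesenchyme was then 6.79 CPM. Sox8 was 12.1-fold higher (6.07 to 28.2) but under 10 CPM. Sox9 was 1.76-fold (1.61 to 1.93) and Sox11 1.85-fold (1.77 to 1.92) higher in crest mesenchyme in 4 of 4 libraries. Sox4 was higher in head mesoderm in 4 of 4 libraries, although its summed ratio was 1.02 (0.970 to 1.06). Sox12 was higher in head mesoderm in 3 of 4, although its summed level was 1.20-fold higher in crest mesenchyme. The sums include 530 crest mesenchyme-like cells of library 5, against 4 head mesoderm-like cells. Without library 2 the Sox11 fold was 2.01 and it joined Sox10 past the rule, and without library 5 it was 1.35. The median log2 ratio of the members was 0.18 here, and 0.05, 0.48, 0.14 and 0.47 in the comparisons of vesicle with other forebrain, vesicle with surface ectoderm, migratory with mesenchymal crest and retina with pigment epithelium, against medians over all genes between -0.06 and -0.01. Among the crest regulators, Tfap2a (27.0-fold), Tfap2b (152-fold) and Pax3 (69.9-fold) were higher in crest mesenchyme.

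The group C genes were present in every class but blood. Sox11 (ENSMUSG00000063632, 1 exon, chr12:27334264-27342574, minus strand) was at 325, 445, 337, 365 and 534 CPM in neuroepithelium and at 248, 335, 270.4, 425 and 906 CPM in crest mesenchyme-like cells of libraries 1 to 5. Neuroepithelium was higher in 3 libraries and lower in libraries 4 and 5, and the summed level was 1.10-fold higher in crest mesenchyme. Sox4 divided the libraries in the same way, at 185, 176, 147, 194 and 163 CPM in neuroepithelium and 138, 126, 133, 244 and 371 CPM in crest mesenchyme. Sox12 was at 26.9, 31.5, 26.9, 33.1 and 51.3 CPM in neuroepithelium and 21.1, 33.7, 26.9, 41.0 and 73.4 CPM in crest mesenchyme. In the plot of levels by class, leaving out erythroid and endothelium-like cells, the summed level was 148 to 240 CPM for Sox4, 239.5 to 475 CPM for Sox11 and 27.5 to 48.5 CPM for Sox12, and the ranges over libraries of neighbouring classes overlapped. Sox4 overlaps Gm26735 on the opposite strand, which is also in the matrix, and whether counting used strand is not given in the sources used. Endothelium-like cells had 147, 145 and 19.2 CPM of the 3 genes. Erythroid-like cells had 1.47, 5.33 and 3.31 CPM of Sox4, Sox11 and Sox12, the lowest of the classes in that plot for each. The 32 neuron-like cells had 1108 CPM of Sox11 and 524 CPM of Sox4, above every class in the plot of levels by class, with 17.2 CPM of Sox12. Neurons are a known site of SOX11 and SOX4 action, and this class is small, with no library of 20 cells.

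Library 5 was the highest in the group C genes in several classes. In crest mesenchyme-like cells Sox11 was 2.13-fold (against library 4) to 3.66-fold (against library 1) higher there, Sox4 1.52- to 2.95-fold and Sox12 1.79- to 3.47-fold. In endothelium-like cells Sox11 was 1.37- to 1.75-fold higher, Sox4 1.48- to 2.56-fold and Sox12 1.89- to 4.01-fold. In surface ectoderm-like cells Sox11 was 1.596- to 3.36-fold and Sox12 1.51- to 4.11-fold higher, while Sox4 was level with library 4 (219 CPM in each) and above the other 3. In the neuroepithelium as a whole, Sox4 was highest in library 4. In the vesicle the differences were smaller, 1.17- to 1.66-fold for Sox11 and 1.03- to 1.23-fold for Sox4. Library 5 also had the lowest depth and the highest Malat1 in these classes, as in crest mesenchyme-like cells with a median of 18478 UMIs against 27411 to 40180. Within library 5, crest cluster 21 had 1382 CPM of Sox11 at a median of 10414 UMIs, and cluster 8 had 837 CPM at a median of 19784. The part of depth or of nuclear RNA in these differences was not tested. In erythroid-like cells the ratio of library 5 to the others was between 0.726 and 3.201 for Sox11, each interval including 1, and between 1.76 and 4.13 for Sox12, with an interval that leaves out 1 against library 4 (1.03 to 23.7).

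Most members were lower in the cells nearly without Malat1 than in a named class set beside each cluster for some shared leading genes. The interval left out 1 for 8, 6 and 7 of the 10 members in the 3 clusters. The share over all genes was not computed, so these counts show nothing particular to Sox genes. The nucleus-depleted cluster of 401 cells led by vesicle genes had 140.3 CPM of Sox11 against 425 in the named vesicle (3.03-fold lower, 2.83 to 3.25) and 29.2 CPM of Sox2 against 79.5 (2.72-fold lower, 2.34 to 3.19). The one led by crest genes (191 cells) had 106 CPM of Sox11 against 442 (4.16-fold lower, 3.71 to 4.68) and 39.2 CPM of Sox9 against 85.5 (2.18-fold lower, 1.81 to 2.66). Libraries were not matched in these ratios. Library 5, highest in Sox11 within crest mesenchyme at 906 CPM, gave 12 of these 191 cells but 530 of the 1692 crest mesenchyme-like cells. In the third, led by Spdl1 and Hmmr, genes of the mitotic spindle, Sox2 was 1.64-fold lower than in other forebrain-like cells (1.43 to 1.89), and the ratio for Sox9 was 1.12 (0.903 to 1.39). Sox10 in the first cluster (0.872, 0.317 to 3.34) and Sox3 in the second (0.945, 0.305 to 4.74) were also among those whose interval included 1. Whether these cells lacked a nucleus was not tested.

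The genes most alike to each member were taken as the 3 with the highest Pearson r over 45 sums of 10 classes by library, among 10574 genes. Sums of a library share its depth and sums of a class share its cells, so r is given as a description. Sox3 was most like the eye-field genes Lhx2 (r = 0.967) and Rax (0.935) and the long noncoding RNA Miat (0.964), and Sox1 most like Ptprz1 (0.922), Nat8l and Miat. Sox2 was most like Kif21a (0.95), Pbx4 and Tubb4a, and Sox21 most like Btbd17 (0.935), Fezf1 and Nuak2. Sox10 was most like Cdh19 (0.974), Lgi4 and Gfra3, genes known from Schwann cell precursors. Sox9 and Sox8 had looser neighbours, Gpc1 (0.871), Fzd7 and Kctd15 for the former and Fxyd1 (0.872), Heyl and L1cam for the latter. Sox11 was most like Zfp462 (0.98), Fam92a and Shisa4, Sox4 most like Mettl9 (0.968), Mex3a and Dpysl2, and Sox12 most like Pabpn1 (0.953), Amn1 and Arid1a. Among the members, Sox4 and Sox11 (0.945), Sox11 and Sox12 (0.919) and Sox1 and Sox3 (0.901) were the most alike pairs, and Sox10 with Sox21 (-0.21) the least.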

How the data were processed

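The matrix holds raw UMI counts per gene and cell, deposited by the authors as whole numbers with no normalisation visible. Per the submitters' processing notes, Cell Ranger and the build mm10 (GRCm38) were used. Its version, the cell calling and the use of strand in counting: not given in the sources used here. The 10 members and all gene lists were chosen with earlier results of these data known, and how clusters were named was set after the data were seen.

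Cells needed 1000 detected genes and no more than 10% of UMIs from mitochondrial genes, which left out 22. Doublets called by Scrublet (scanpy 1.11.5; expected 6%) were dropped, 66 in all (0.808%). The 277 cells with both neural and crest markers had a median of 56597 UMIs, and vesicle sub-cluster 6 (159 cells) had 70795. The optic vesicle-like and crest mesenchyme-like classes had medians of 30901 and 28008. Whether doublets remained among the cells kept was not tested. Leiden clustering at resolution 1 (2000 variable genes, 30 components, 15 neighbours; no Sox, ribosomal, mitochondrial, haemoglobin or sex-linked genes) gave 24 clusters, and neural, ectodermal and vesicle cells were clustered again. Nucleus-depleted clusters had Malat1 under the median over clusters divided by 3. Counts were summed by class and library and compared as CPM with exact 95% intervals (scipy 1.17.1). There were no replicates, since each stage was 1 embryo, so p-values were not computed. Named genes were the members, the 3 most alike genes of each, and for each list up to 4 genes past the rule with the largest ratio. Some genes of the lists are not reported here. The size rule was tested on simulated data. Gene coordinates are from the GENCODE annotation of GRCm38. Alternatives covered doublets, barcode filters, resolution, Sox genes in clustering, weights, single libraries, unnamed clusters, the CPM minimum and a thinning depth of 5000 UMIs.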

Additional observations from a re-analysis of the deposited data

How the results depend on the processing

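No analysis between stages was possible because each stage had 1 embryo and the libraries carry no stage or replicate label. Classes were set against each other within a library for the direction in the size rule. The summed folds pool libraries with unequal numbers of cells and are not paired by library. Of 190 counts of members past the size rule under the alternatives, 168 stayed within 1.5 times the count reported and 22 moved, and of 209 folds of members past the rule, 37 moved, 199 still passed and 0 reversed. These totals include settings that could not change a given comparison, such as the class of the ventral cluster in comparisons without it. A changed CPM minimum could not alter any fold. The totals therefore do not measure stability. Shares over all genes were not computed under the alternatives. Of 20 shares of cells, 14 moved when cells were thinned to 5000 UMIs. In migratory against mesenchymal crest, 5 members were higher with doublets kept, with no barcode filter, at resolution 2 and with Sox genes in the clustering, each over the 32 cells then named, and 2 with no minimum level. In crest mesenchyme against head mesoderm, 2 members were higher at resolution 2, with the mean over cells and with no minimum, and 0 at a minimum of 20 CPM. In vesicle against other forebrain, 0 were higher in other forebrain with libraries weighted equally or with the ventral cluster counted as vesicle, and 2 in the vesicle with no minimum. In neuroepithelium against crest mesenchyme, the minimum of 20 CPM left 2 higher and 1 lower. In vesicle against surface ectoderm it left 1. In retina against pigment epithelium, no minimum gave 3 higher and 1 lower. Leaving out single libraries gave 1 to 2 members higher in crest mesenchyme than in neuroepithelium, 1 to 2 in migratory crest, 0 to 2 against head mesoderm and 3 to 5 in vesicle against surface ectoderm. Without library 5 no retina-like or pigment-epithelium-like class remained. Some folds rest on few UMIs: 6, 9 and 11 of Sox1, Sox3 and Sox21 in surface ectoderm, and 4 of Sox10 in head mesoderm.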
